A study of Mus musculus with 32 samples.

Results

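The 10 genes described here make up the interleukin-1 system and the inflammasome that matures its cytokines: the ligands Il1a, Il1b and Il18, the receptor antagonist Il1rn, the receptors Il1r1, Il1r2 and Il1rap, and the inflammasome genes Nlrp3, Casp1 and Casp4. They were taken by name from the 33280 genes of 2 count tables, and all 10 were present in both tables and passed the filter on low counts. The tables hold bulk RNA-seq of whole brain tissue and of sorted sdCAMs, the CNS-associated macrophages at the borders of the brain, 1 day after an experimental stroke. The question was whether macrophages that had repopulated the brain after a depletion respond to stroke as those of control mice do.

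All 8 mice were wild-type C57BL/6JCrl animals of both sexes whose age is not given in the labels, and every mouse had a thromboembolic stroke, made by injecting thrombin into the middle cerebral artery. The 4 CTL mice (A2, A3, A4 and B1) had first been given the vehicle by gavage for 7 days, and the 4 BLZ945 mice (C2, C3, C4 and D1) the CSF1R inhibitor BLZ945, which depletes brain macrophages. Stroke followed 8 weeks later, after repopulation. From each mouse the hemisphere with the stroke (ipsilateral) and the opposite one (contralateral) were taken, and no unoperated mouse is among these groups. sdCAMs were sorted as CD206+ CD11b+ CD45+ cells negative for Ly6C, Ly6G and CD11c, with the choroid plexus removed. Of 32 libraries, 30 were used. Tissue libraries held 9288717 to 12781505 gene counts and sdCAM libraries 7397393 to 11081409, so that 3 counts correspond to 0.235 to 0.406 CPM (counts scaled to the size of the library). The ipsilateral sdCAM libraries of A3 and C2, marked as degraded in the labels, held 54055 and 55155 counts and were left out, which leaves 3 mice per treatment there.

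The sorted libraries were checked against marker genes. The summed level of 8 border macrophage markers (Mrc1, Lyve1, Pf4, Cd163 and others) was 20.4 to 37.1 CPM in tissue and 1088 to 7284 CPM in sdCAMs, but 6 microglia markers (such as Olfml3) summed to 4696 to 17214 CPM in the same sdCAM libraries. Contralateral sdCAM libraries also held other cell types at levels that ipsilateral libraries did not reach. Endothelial markers summed to 677 to 1845 CPM contralaterally and to 44.6 to 129 CPM ipsilaterally, and choroid plexus markers reached 37405 CPM in C4 and 20131 CPM in C3. For mouse A3, the tissue count columns and the sample labels name the hemispheres the opposite way. The labels were followed. Counts of members called and some fold changes are also given with the columns' naming. Counts of mice, overlaps between the hemispheres, ratios and list counts follow the labels only.

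Interleukin-1 alpha and interleukin-1 beta are inflammatory cytokines that bind the same receptor, IL1R1, which signals together with the accessory protein IL1RAP through MyD88. The antagonist IL1RN occupies IL1R1 without signalling, and IL1R2 binds the ligands as a decoy. Interleukin-1 beta and interleukin-18 are made as inactive precursors and cut by caspase-1 in an inflammasome that NLRP3 can nucleate, while caspase-4 (caspase-11) senses bacterial lipopolysaccharide in the cytosol. In stroke, interleukin-1 is known as an early cytokine of microglia, macrophages and infiltrating leukocytes.

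The members lie in a few clusters of the mouse genome (GRCm38, GENCODE M21). Il1a (chr2:129299610-129309972), Il1b (chr2:129364570-129371139) and Il1rn (chr2:24336853-24351494) are on chromosome 2. Il1r2 (chr1:40074079-40125231) and Il1r1 (chr1:40225080-40317257) are neighbours on chromosome 1, and Casp1 (chr9:5298517-5307265) and Casp4 (chr9:5308828-5336783) on chromosome 9, which also carries Il18 (chr9:50554827-50581840). Nlrp3 (chr11:59541568-59566956) and Il1rap (chr16:26581704-26730117) stand alone. On the opposite strand, exons of Gm14023 overlap Il1a, those of Il1bos overlap Il1b and those of Gm20319 overlap Il1rap. The library kit does not mark strand, so reads in these overlaps cannot be told apart. Gm14023 had 0 to 6 counts per tissue library and 15 to 130 per sdCAM library, and Il1bos 0 to 2 and 0 to 18.

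The promoter windows of the 4 members with the clearest difference between the hemispheres in tissue are shown, each 250 bases before to 50 bases after a RefSeq transcription start (GRCm38.p6), written in the direction of transcription. Capitals mark matches to the motifs searched on both strands. These were the kappaB motif of NF-kappaB (GGGRNNYYCC, 10 bases), AP-1 (TGANTCA), C/EBP (TTNNGCAA) and the TATA box (TATAAA). R stands for A or G, Y for C or T and N for any base.
Il1a, chr2:129309923-129310222, minus strand: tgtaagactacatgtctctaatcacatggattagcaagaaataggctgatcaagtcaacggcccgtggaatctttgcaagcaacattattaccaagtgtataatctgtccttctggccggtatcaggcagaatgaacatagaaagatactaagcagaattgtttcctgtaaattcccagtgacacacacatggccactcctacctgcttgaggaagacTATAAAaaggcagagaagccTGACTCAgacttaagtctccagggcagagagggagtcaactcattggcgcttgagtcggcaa
Il1b, chr2:129371090-129371389, minus strand: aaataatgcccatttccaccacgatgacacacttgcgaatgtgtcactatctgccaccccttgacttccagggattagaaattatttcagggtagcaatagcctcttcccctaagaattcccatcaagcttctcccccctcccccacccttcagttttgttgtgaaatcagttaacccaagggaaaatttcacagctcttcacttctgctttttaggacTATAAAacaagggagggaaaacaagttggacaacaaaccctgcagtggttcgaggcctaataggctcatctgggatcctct
Il1rn, first of 3 windows, chr2:24336610-24336909, plus strand: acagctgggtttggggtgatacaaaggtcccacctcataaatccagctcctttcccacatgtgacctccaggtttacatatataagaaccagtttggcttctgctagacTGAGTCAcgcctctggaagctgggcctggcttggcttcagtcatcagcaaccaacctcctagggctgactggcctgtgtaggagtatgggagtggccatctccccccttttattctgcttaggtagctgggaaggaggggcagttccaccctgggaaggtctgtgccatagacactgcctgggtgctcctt
Nlrp3, second of 2 windows, chr11:59541319-59541618, plus strand: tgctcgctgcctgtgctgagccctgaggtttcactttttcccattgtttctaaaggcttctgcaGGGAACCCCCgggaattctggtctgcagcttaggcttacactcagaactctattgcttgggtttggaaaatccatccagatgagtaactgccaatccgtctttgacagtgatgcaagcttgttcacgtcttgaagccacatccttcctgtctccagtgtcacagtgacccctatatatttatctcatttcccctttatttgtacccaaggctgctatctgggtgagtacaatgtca
Il1a and Il1b each held a TATA box 32 and 31 bases before the start. Il1a also held an AP-1 match 12 bases before the start, and Il1rn one 141 bases before it in the window shown, but none in its other windows. Nlrp3 held a kappaB match 186 bases before the start in the window shown, and its other window held no match to any of the motifs. RefSeq listed 15 windows for the 10 members. kappaB letters occurred in 4 of the 15 windows (3 members: Il1r1, Nlrp3 and Casp4), AP-1 in 2, C/EBP in 1 and TATA in 4. Among all 32851 windows the shares were 8.46% for kappaB, 7.81% for AP-1, 10.8% for C/EBP and 13.6% for TATA. Such matches describe these letters only, and the data do not bear on binding.

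In whole tissue the ligands Il1a and Il1b, the antagonist, one receptor and Nlrp3 were higher on the side of the stroke. Averaged over both treatments, 5 of the 10 members rose in the ipsilateral hemisphere by edgeR's quasi-likelihood test (Il1a, Il1b, Il1rn, Il1r1 and Nlrp3) and none fell, where 2.01% of all 18968 genes tested were called. A gene was called at an adjusted p below 0.05 (Benjamini-Hochberg over all genes) with a log2 fold change beyond 0.59. The median log2 fold change was 1.19 over the members and -0.0091 over all genes. In CTL mice alone 1 of 10 was called, Il1rn, against 0.443% of genes, and in BLZ945 mice alone 2, Il1b and Il1rn, against 1.16%. With the mouse as a block, the BLZ945 count was 4, against 2.18% of all genes, with Il1r1 (log2 fold change 0.83, adjusted p = 0.0133) and Nlrp3 (1.21, adjusted p = 0.0496) added. With the hemispheres of A3 as the count columns name them, none of the 10 was called in CTL mice, in BLZ945 mice or in the average, where Il1rn had a log2 fold change of 4.06 (adjusted p = 0.0864). The p-values of the main fit rest on the spread among libraries within a group. That fit treats the hemispheres of a mouse as separate libraries and does not use their pairing.

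**Figure D1:**
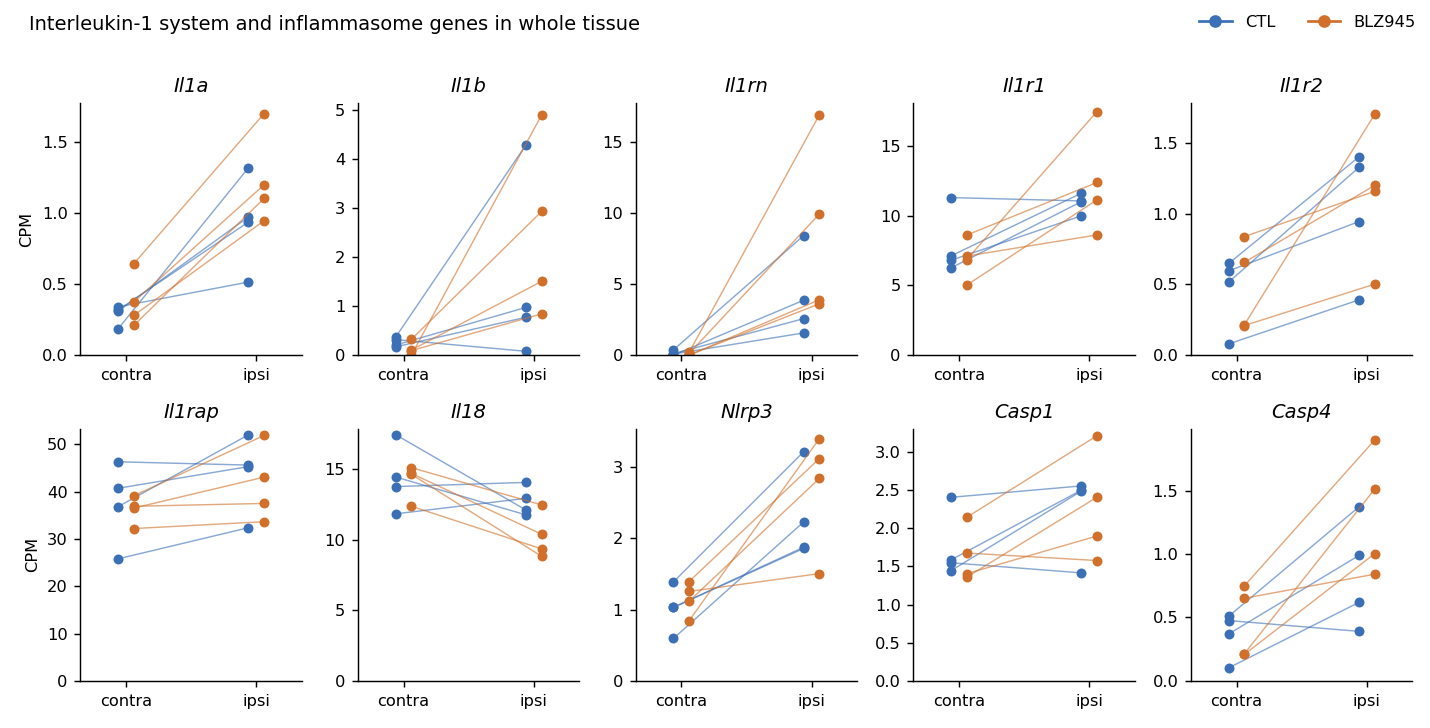
Level of each of the 10 members in the 16 tissue libraries, in CPM on the vertical axis, contralateral and ipsilateral. Each point is 1 library and lines join the hemispheres of 1 mouse, CTL in blue and BLZ945 in orange. By the labels, Il1rn and Nlrp3 were higher ipsilaterally in 8 of 8 mice with no overlap between the hemispheres, while Il18 was lower in 6 of 8.

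Il1rn, the antagonist, showed the largest difference of the members. It had 1, 0, 1 and 4 counts in the contralateral tissue of CTL mice A2, A3, A4 and B1, and 20, 45, 29 and 102 counts in their ipsilateral tissue. In BLZ945 mice C2, C3, C4 and D1 it had 1, 0, 0 and 2 contralateral and 105, 36, 37 and 169 ipsilateral counts. By the labels every ipsilateral library was above every contralateral one, and the highest ipsilateral value of each treatment was in B1 and D1. With the columns' naming, A3 would hold 45 contralateral and 0 ipsilateral counts and break that separation. Scaled for depth, the summed counts of 543 and 9 gave a ratio of 60.2 (95% counting interval 31.5 to 132, which covers counting error only). The ratio was 31.3 (14.1 to 86.4) in CTL and 121 (41.0 to 588, on 3 contralateral counts) in BLZ945 mice. The fitted log2 fold change was 5.73 ± 0.61 (SE, 16 libraries of 8 mice, adjusted p = 2.35e-05 by edgeR). It was 4.82 ± 0.82 in CTL (adjusted p = 0.0101) and 6.65 ± 0.89 in BLZ945 mice (adjusted p = 0.000632). The call in CTL mice was lost without A3 (adjusted p = 0.0976).

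Il1b, the precursor of interleukin-1 beta, was rare contralaterally and varied widely on the side of the stroke. It had 4, 2, 2 and 4 contralateral counts in CTL mice A2, A3, A4 and B1 and 1, 9, 11 and 52 ipsilateral counts. The BLZ945 mice C2, C3, C4 and D1 had 3, 1, 1 and 0 contralateral and 31, 15, 8 and 49 ipsilateral counts. Groups overlapped in CTL mice through A2, the only one of 8 mice with fewer ipsilateral counts, and did not overlap in BLZ945 mice. The ratio of summed counts, scaled for depth, was 10.3 (6.27 to 18.1), with 5.84 (3.15 to 11.8) in CTL and 21.5 (8.92 to 67.6) in BLZ945 mice. The fitted difference was 3.35 ± 0.66 on the log2 scale (adjusted p = 0.00709). In BLZ945 mice it was 4.23 ± 0.98 (adjusted p = 0.0391), a call that was lost without any one of A3, A4, C2, C3, C4 and D1 (adjusted p from 0.0555 to 0.262).

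Il1a, the other ligand of IL1R1, was also low and differed less. Contralateral libraries held 4, 4, 3 and 2 counts in CTL mice A2, A3, A4 and B1 and 6, 2, 3 and 4 in BLZ945 mice C2, C3, C4 and D1, and ipsilateral libraries 12, 6, 11 and 16 and 18, 11, 9 and 12. It was higher ipsilaterally in 8 of 8 mice, and the hemispheres did not overlap within either treatment. The log2 fold change was 1.68 ± 0.30 (adjusted p = 0.0032), and the ratio of summed counts 3.38 (2.201 to 5.36). Il18, the cytokine that like interleukin-1 beta is cut by caspase-1, went the other way without a call. It had 11.8 to 17.4 CPM contralaterally and 8.82 to 14.1 CPM ipsilaterally, with a log2 fold change of -0.32 ± 0.10 (adjusted p = 0.0929) and lower values in 6 of 8 mice.

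Among the receptors, Il1r1, the signalling receptor, was the one called. Its contralateral level in CTL mice A2, A3, A4 and B1 was 6.26, 11.3, 6.81 and 7.12 CPM and its ipsilateral level 11.01, 11.1, 9.99 and 11.6 CPM. In BLZ945 mice C2, C3, C4 and D1 it was 6.86, 7.11, 5.02 and 8.61 CPM contralaterally and 17.5, 8.62, 11.1 and 12.4 CPM ipsilaterally. It was higher in 7 of 8 mice, A3 being the exception, and the hemispheres did not overlap in BLZ945 mice. The log2 fold change of 0.66 ± 0.16 (adjusted p = 0.028) lost its call without any one of A2, A4, B1, C2 and C4 (adjusted p from 0.0612 to 0.114). Tissue endothelial markers summed to 194 to 261 CPM contralaterally and 217 to 319 CPM ipsilaterally, and 2 of the 6 rose (Cdh5 and Pecam1). Their part in the result was not tested. Il1r2, the decoy, was higher ipsilaterally in 8 of 8 mice but at 1 to 18 counts per library it did not pass (log2 fold change 1.17 ± 0.41, adjusted p = 0.16). Il1rap, at 25.8 to 46.3 CPM contralaterally and 32.4 to 52.0 CPM ipsilaterally, was higher in 7 of 8 mice with a log2 fold change of 0.21 ± 0.12 (adjusted p = 0.466).

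Nlrp3, the inflammasome sensor, had 13, 7, 10 and 15 contralateral counts in CTL mice A2, A3, A4 and B1 and 24, 26, 21 and 39 ipsilateral counts. In BLZ945 mice C2, C3, C4 and D1 it had 13, 12, 12 and 9 contralateral and 33, 15, 27 and 34 ipsilateral counts. By the labels no ipsilateral library overlapped the contralateral ones. The columns' naming of A3, with 26 contralateral and 7 ipsilateral counts, would break that separation. The log2 fold change was 1.21 ± 0.23 (adjusted p = 0.00531), a ratio of summed counts of 2.40 (1.87 to 3.10). The caspases did not pass. Casp4 had 1 to 8 counts contralaterally and 5 to 19 ipsilaterally, with a log2 fold change of 1.32 ± 0.37 (adjusted p = 0.0717) that was called with the mouse as a block (1.32, adjusted p = 0.0485). Casp1, at 1.36 to 2.40 CPM and 1.41 to 3.21 CPM, was higher in 6 of 8 mice with a log2 fold change of 0.42 ± 0.21 (adjusted p = 0.377). In these bulk samples, more cells of a type and more RNA per cell cannot be told apart. Neutrophil markers summed to 0.321 to 1.78 CPM in contralateral and 0.547 to 4.61 CPM in ipsilateral tissue and border macrophage markers to 20.4 to 28.9 and 28.3 to 37.1 CPM, and 2 of 6 tested neutrophil markers and 1 of 7 monocyte markers rose. Their part in these differences was not tested.

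Treatment with BLZ945 8 weeks before stroke made no called difference in tissue. None of the 10 members, and 0% of all genes, was called between BLZ945 and CTL mice in ipsilateral tissue by edgeR, where 1 member had an unadjusted p below 0.05 (Il18, log2 difference -0.31 ± 0.14, adjusted p = 0.958). In contralateral tissue none was called, against 0% of all genes, and no member had an unadjusted p below 0.05. DESeq2 called none of the members in either comparison. The groups overlapped for all 10 members on both sides. Ipsilateral Il1rn was 1.07 ± 0.54 higher in BLZ945 mice on the log2 scale (adjusted p = 0.958 by edgeR), with 1.56 to 8.40 CPM in CTL and 3.61 to 16.9 CPM in BLZ945 mice. The difference of the stroke response between the treatments was called for none of the members (0% of genes, no member at an unadjusted p below 0.05, none by DESeq2), but its intervals were wide. For Il1rn it was 1.83 on the log2 scale (95% interval -1.60 to 5.26), for Il1b 1.76 (-1.21 to 4.74), and for Il1r1 0.38 (-0.29 to 1.04).

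Other genes of the pathway were counted from lists. Of 19 tested genes known to be induced by interleukin-1, 12 rose in ipsilateral tissue in the average, beside 1.93% of all genes, among them Mmp3, a matrix protease (0 to 0.105 CPM contralaterally and 1.70 to 12.2 CPM ipsilaterally), Ccl2, a monocyte chemokine (log2 fold change 4.01 ± 0.50), and Lcn2, an iron-binding acute phase protein (2.61 ± 0.36). These genes also respond to other signals. In CTL mice 3 of the 19 were called, beside 0.443% of all genes, and in BLZ945 mice 9, beside 1.16%. The difference between the treatments was called for none. Of 24 other inflammasome and pyroptosis genes 3 rose, with Gbp2 and Gbp3, interferon-induced GTPases, at 1.92 ± 0.22 and 1.56 ± 0.16. Of 17 genes of IL-1 receptor signalling 1 rose, the adaptor Myd88 (0.85 ± 0.15, adjusted p = 0.00259). None of 10 tested genes of the rest of the IL-1 family was called by edgeR, and 3 had an unadjusted p below 0.05. The alarmin Il33 came closest, with 60.9 to 98.0 CPM contralaterally, 69.3 to 215 CPM ipsilaterally and a log2 fold change of 0.76 ± 0.20 (adjusted p = 0.0517).

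The sorted sdCAMs carried the system at another level than tissue. In contralateral libraries 9 of 10 members were higher in sdCAMs than in tissue and none lower. Of all 19389 genes 67.3% were called, 30.3% higher and 37.1% lower. The members' median log2 difference was 5.39, against -0.15 over all genes. The difference was 10.57 ± 1.08 for Il1b, 10.22 ± 1.28 for Il1rn, 7.95 ± 0.38 for Il1a and 6.79 ± 0.71 for Il1r2. It was 5.61 ± 0.36 for Casp4, 5.17 ± 0.26 for Casp1 and 4.83 ± 0.36 for Nlrp3. Il1r1 (2.32 ± 0.40) and Il18 (1.44 ± 0.14) differed least among those called, and Il1rap not detectably (0.42 ± 0.22, adjusted p = 0.0927). Cell type and the kind of library cannot be told apart in this comparison.

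Per length of the gene's exons (CPM per kb, with GENCODE M21 lengths, which are not the authors' own), Il18 was the highest member in contralateral tissue at a median of 14.6, followed by Il1rap at 3.38. The lowest were Il1b at 0.103 and Il1rn at 0.0172. The libraries' ranges of Il18 (12.0 to 17.8) and of Il1rap (2.36 to 4.29) overlapped no other member. Il1r1 (1.14) and Casp1 (1.09) overlapped each other only, and the 6 members below them overlapped their neighbours in the order. In contralateral sdCAMs Il1b had the highest median, 109 CPM per kb, with a range of 9.14 to 678 that overlapped those of Casp1 (44.9), Il18 (39.1), Il1a (36.03), Il1r2 (19.05), Il1rn (18.4) and Nlrp3 (7.12). Il1rap was lowest at 3.61, with Nlrp3, Il1r1 (6.31) and Casp4 (5.33) above it and ranges that overlapped. In ipsilateral sdCAMs Il1b (96.3) and Casp1 (62.6) again led, and Il1r1 came last at 0.750.

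In sdCAMs, the receptor Il1r1 differed most clearly between the hemispheres, and it was lower on the side of the stroke. Its contralateral level in CTL mice A2, A3, A4 and B1 was 25.9, 48.9, 35.8 and 33.6 CPM, and its ipsilateral level in A2, A4 and B1 0.878, 3.37 and 6.87 CPM. In BLZ945 mice it was 47.4, 24.9, 55.9 and 49.9 CPM contralaterally (C2, C3, C4 and D1) and 0.487, 14.4 and 18.7 CPM ipsilaterally (C3, C4 and D1). No ipsilateral library reached a contralateral one. The average log2 fold change was -2.63 ± 0.58 (adjusted p = 0.00716, lower in 6 of 6 mice with both libraries). Averaged over treatments, 2 of 10 members were called, both lower, against 15% of the 18297 genes tested, a share near that of the members. No member was called in CTL mice alone (2.79% of genes, 2 members at an unadjusted p below 0.05) or in BLZ945 mice alone (5.61%, 1 member). DESeq2 called 2 and 1 members there, and 9.7% and 13.5% of the same genes.

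Il1rap, the accessory chain, was the other member called, and its call was fragile. Contralateral values were 52.3, 99.4, 41.4 and 37.4 CPM in CTL mice A2, A3, A4 and B1 and 86.2, 27.6, 41.6 and 43.4 CPM in BLZ945 mice C2, C3, C4 and D1. Ipsilateral values were 16.8, 28.9 and 25.8 CPM in A2, A4 and B1 and 37.9, 18.95 and 40.7 CPM in C3, C4 and D1. The hemispheres were apart in CTL mice and overlapped in BLZ945 mice, where C3 was higher ipsilaterally. The average log2 fold change was -0.94 ± 0.31 (adjusted p = 0.0495). It was -0.57 (adjusted p = 0.228) with the mouse as a block, and the call was lost without any one of the 8 mice (adjusted p from 0.0537 to 0.126).

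Markers of other cells also differed between the hemispheres in the sdCAM libraries. All 6 endothelial markers fell in ipsilateral sdCAM libraries, with Slco1a4 (log2 fold change -4.58 ± 0.46), Flt1 (-4.47 ± 0.32) and Cldn5 (-4.26 ± 0.42) the largest, as did 5 of 5 oligodendrocyte and 3 of 5 astrocyte markers, while 7 of 8 border macrophage markers rose (Mrc1, 1.15 ± 0.35). Summed oligodendrocyte markers were 475 to 5624 CPM contralaterally and 213 to 612 CPM ipsilaterally, and astrocyte markers 241 to 1360 and 167 to 563 CPM. Their part in the fall of Il1r1 and Il1rap was not tested. The contralateral libraries of C3 and C4 were the richest in choroid plexus markers. Without them, a setting chosen after seeing the data, the call of Il1r1 was kept. The remaining libraries still differed in endothelial markers between the hemispheres, so this does not bear on that difference.

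**Figure D2:**
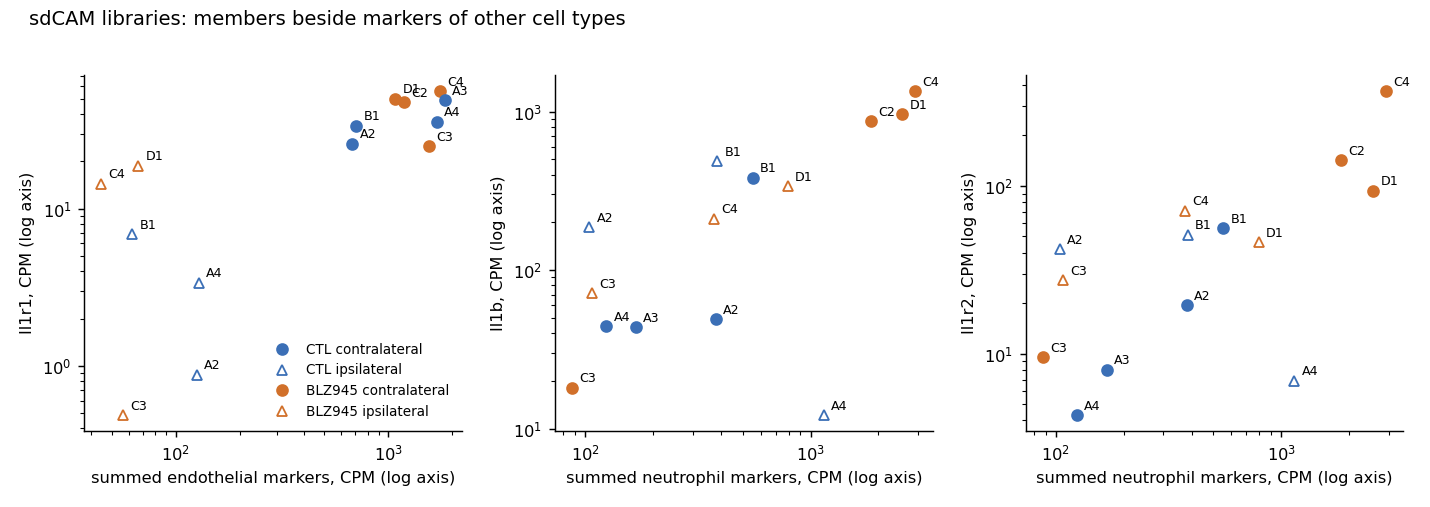
Il1r1 against summed endothelial markers, and Il1b and Il1r2 against summed neutrophil markers, in the 14 sdCAM libraries, in CPM on log axes. Filled circles are contralateral and open triangles ipsilateral libraries, CTL in blue and BLZ945 in orange, each named by its mouse. Contralateral libraries lie apart from ipsilateral ones on both axes of the first panel, and the contralateral libraries of C2, C4 and D1 are highest on both axes of the other panels.

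The ligand Il1b and the antagonist Il1rn varied widely between sdCAM libraries, and neither was called between the hemispheres. Il1b had 48.9, 43.4, 44.4 and 382 CPM in the contralateral libraries of CTL mice A2, A3, A4 and B1 and 187, 12.2 and 487 CPM in the ipsilateral ones of A2, A4 and B1. In BLZ945 mice C2, C3, C4 and D1 the contralateral values were 872, 18.1, 1346 and 961 CPM, and the ipsilateral values of C3, C4 and D1 were 71.4, 211 and 338 CPM. Il1b was thus higher ipsilaterally in 3 of 6 mice and lower in 3, with an average log2 fold change of -0.57 ± 0.81 (adjusted p = 0.709). The 3 libraries with the most Il1b, those of C2, C4 and D1, also held the most neutrophil marker counts, with sums of 1845, 2919 and 2554 CPM against 87.4 to 1143 CPM in the other 11. Ly6g, the surface marker used to gate neutrophils out, had 0 to 31 counts in any sdCAM library. The ipsilateral library of A4 had a neutrophil sum of 1143 CPM with the lowest Il1b. Summed monocyte markers were 207 to 1055 CPM in contralateral BLZ945 libraries and 120 to 224 CPM in contralateral CTL libraries. Choroid plexus markers there summed to 1420 to 37405 CPM in BLZ945 and 30.7 to 8983 CPM in CTL mice. The part of any of these cells in the Il1b level was not tested.

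Il1rn had 113, 28.6, 0 and 147 CPM contralaterally in CTL mice A2, A3, A4 and B1 and 181, 18.5 and 335 CPM ipsilaterally in A2, A4 and B1. The 0 of A4 was a count of 0 among 11081409, which allows up to 0.271 CPM. BLZ945 mice C2, C3, C4 and D1 had 347, 11.1, 100 and 710 CPM contralaterally, and C3, C4 and D1 38.5, 184 and 530 CPM ipsilaterally. It was higher ipsilaterally in 5 of 6 mice, with a log2 fold change of 0.54 ± 0.95 (adjusted p = 0.778). Il1r2, the decoy, ran from 4.30 CPM in A4 to 368 CPM in C4 on the contralateral side, where Il1rn was also lowest in A4 but highest in D1. Its ipsilateral values were 6.87 to 71.0 CPM (log2 fold change -0.53 ± 0.67, adjusted p = 0.662). Il1a spread least of the ligands that bind IL1R1, with 51.3 to 179 CPM and 81.5 to 236 CPM, and its log2 fold change of 0.65 ± 0.32 (adjusted p = 0.18) was called with the mouse as a block (0.82, adjusted p = 0.0396).

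Neither the inflammasome genes nor Il18 were called in sdCAMs. Casp1 had 34.8 to 102 CPM contralaterally and 85.6 to 113 CPM ipsilaterally, with a log2 fold change of 0.59 ± 0.25 (adjusted p = 0.122). Nlrp3 was higher ipsilaterally in 6 of 6 mice with a log2 fold change of 0.41 ± 0.37 (adjusted p = 0.504) and overlapping values of 8.98 to 83.3 and 31.6 to 60.8 CPM. Its widest gap was in C4, with 8.98 CPM contralaterally and 35.9 CPM ipsilaterally. Casp4 (0.16 ± 0.28) and Il18 (0.012 ± 0.20) did not pass, and the signs of both turned under other settings. Il18, with 31.4 to 55.0 and 32.01 to 65.8 CPM, had the smallest fold change of the 10.

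**Figure D3:**
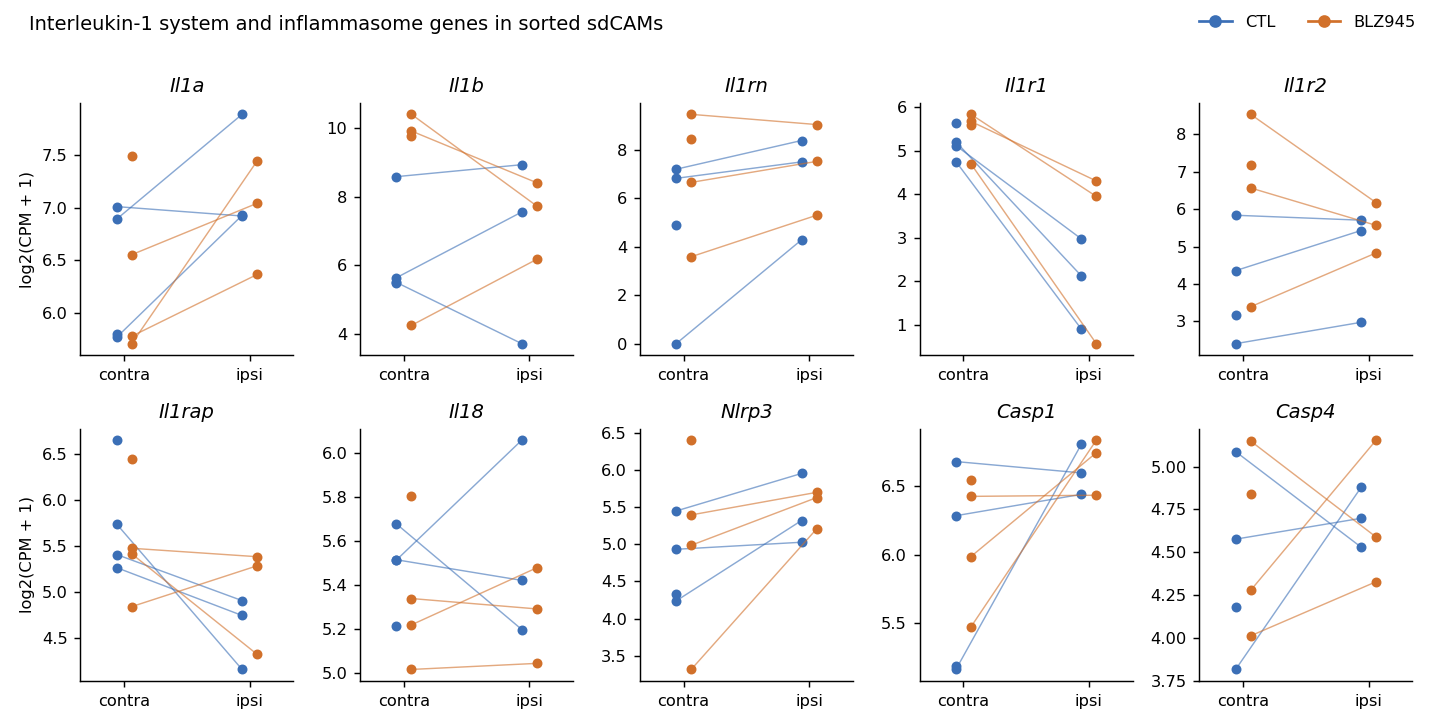
Level of each of the 10 members in the 14 sdCAM libraries, as log2(CPM + 1) on the vertical axis, contralateral and ipsilateral. Each point is 1 library, lines join the hemispheres of the 6 mice with both, and points without a line are A3 and C2 (CTL in blue, BLZ945 in orange). Il1r1 was lower ipsilaterally in 6 of 6 mice, while Il1b was higher in 3 and lower in 3.

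Of the comparisons between BLZ945 and CTL mice, the one in contralateral sdCAMs held the largest log2 differences of the members, without a call. Il1r2 was 2.81 ± 0.93 higher in BLZ945 than in CTL mice on the log2 scale (adjusted p = 0.759 by edgeR) and Il1b 2.62 ± 1.11 (adjusted p = 0.759). These were the 2 members at an unadjusted p below 0.05, none was called by edgeR or DESeq2, and 0% of all genes was called. Both groups overlapped through C3, whose Il1b (18.1 CPM) and neutrophil sum (87.4 CPM) were the lowest of the 8 contralateral libraries. In ipsilateral sdCAMs no member was called (0% of genes) or had an unadjusted p below 0.05, and DESeq2 called none. The largest difference there was that of Il1r1, 1.59 ± 0.84 higher in BLZ945 mice (adjusted p = 0.838 by edgeR). For the difference of the stroke response between treatments no member was called or had an unadjusted p below 0.05, none was called by DESeq2, and 0% of genes was called. Its value was -2.77 for Il1b (95% interval -6.24 to 0.70) and 1.28 for Il1r1 (-0.999 to 3.57).

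The response to stroke was then compared between sdCAMs and tissue in 1 fit of 30 libraries. It was lower in sdCAMs for 4 of 10 members and higher for none. Of all genes 19.4% were called, 17% lower and 2.35% higher, and the median over all genes was -0.27. Both kinds of library came from the same mice. The log2 difference, sdCAMs minus tissue, was -3.34 ± 0.59 for Il1r1 (adjusted p = 0.000145) and -1.21 ± 0.33 for Il1rap (adjusted p = 0.00974). It was -5.24 ± 1.63 for Il1rn (adjusted p = 0.0225) and -3.97 ± 1.36 for Il1b (adjusted p = 0.0388). Il1r1 rose in tissue and fell in sdCAMs, and Il1rap fell in sdCAMs without a call in tissue. Il1rn and Il1b rose in tissue, and their differences in sdCAMs did not pass. With limma voom only Il1r1 was called, and 12% of all genes. With the A3 columns' naming Il1b (-3.58, adjusted p = 0.0665) and Il1rn (-3.57, adjusted p = 0.145) lost their calls. Without any one of A3, A4, B1, C2, C4 and D1 the call of Il1b was lost, and without A2, C2 or C4 that of Il1rn. Without the contralateral libraries of C3 and C4, 7 members were called, with Il1a, Nlrp3 and Casp4 added, and 17% of all genes.

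**Figure D4:**
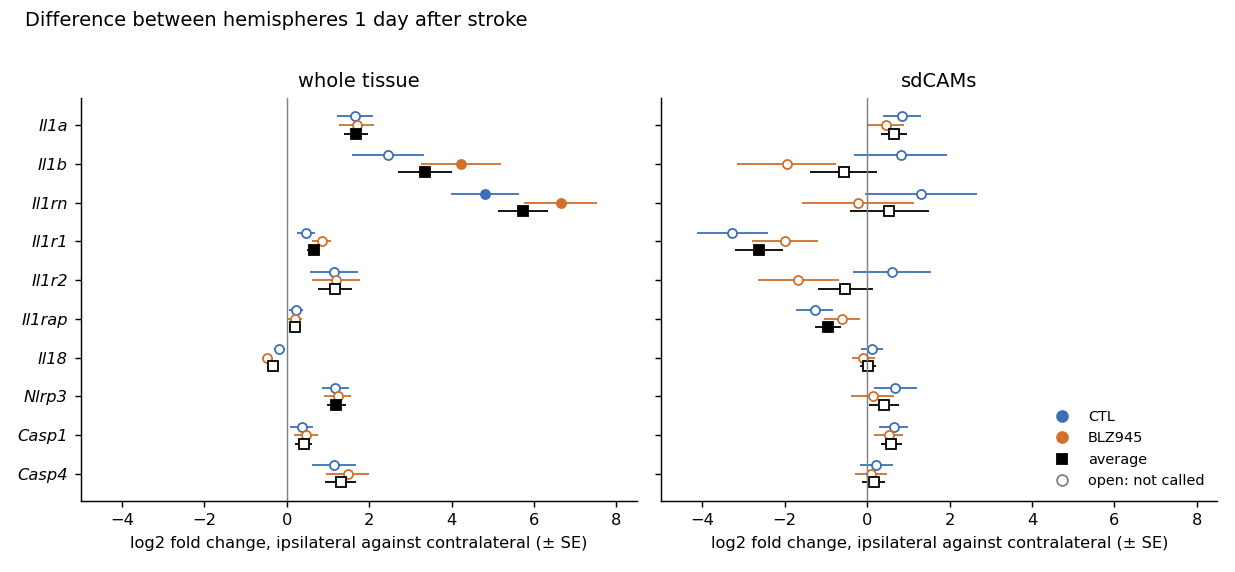
Log2 fold change of each member, ipsilateral against contralateral, in tissue and in sdCAMs, with bars of 1 SE, for CTL mice (blue), BLZ945 mice (orange) and their average (black), filled where called. In tissue, Il1rn and Il1b lie farthest to the right (average 5.73 and 3.35), and in sdCAMs Il1r1 lies farthest to the left (average -2.63).

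The balance of antagonist to ligand was described within each library as a log2 ratio of counts, with 2 counts added to each gene. In tissue, Il1rn relative to Il1b was -0.42 ± 0.66 contralaterally (SD, n = 8) and 1.72 ± 0.62 ipsilaterally, and it was higher ipsilaterally in 8 of 8 mice, by 2.13 ± 1.06. With 0.5 counts added it was higher in 7 of 8 mice, by 2.75 ± 1.91, and lower in D1 (-0.55). Against Il1a and Il1b together the difference was 2.21 ± 0.79, again in 8 of 8 mice. With so few contralateral counts the added 2 counts weigh on the contralateral ratio, and with 0.5 counts added the difference against both ligands was 3.17, in 8 of 8 mice. In sdCAMs the Il1rn to Il1b ratio was higher ipsilaterally in 4 of 6 mice, by 2.11 ± 3.57 on average, of which 8.64 was that of A4, where the contralateral library held no Il1rn. Decoy to signalling receptor, Il1r2 to Il1r1, differed by 0.32 ± 0.46 in tissue (7 of 8 mice) and by 3.05 ± 2.84 in sdCAMs (5 of 6 mice), where the ratio runs from -3.01 to 2.71 contralaterally and 0.97 to 5.24 ipsilaterally. No test was made on these ratios.

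**Figure D5:**
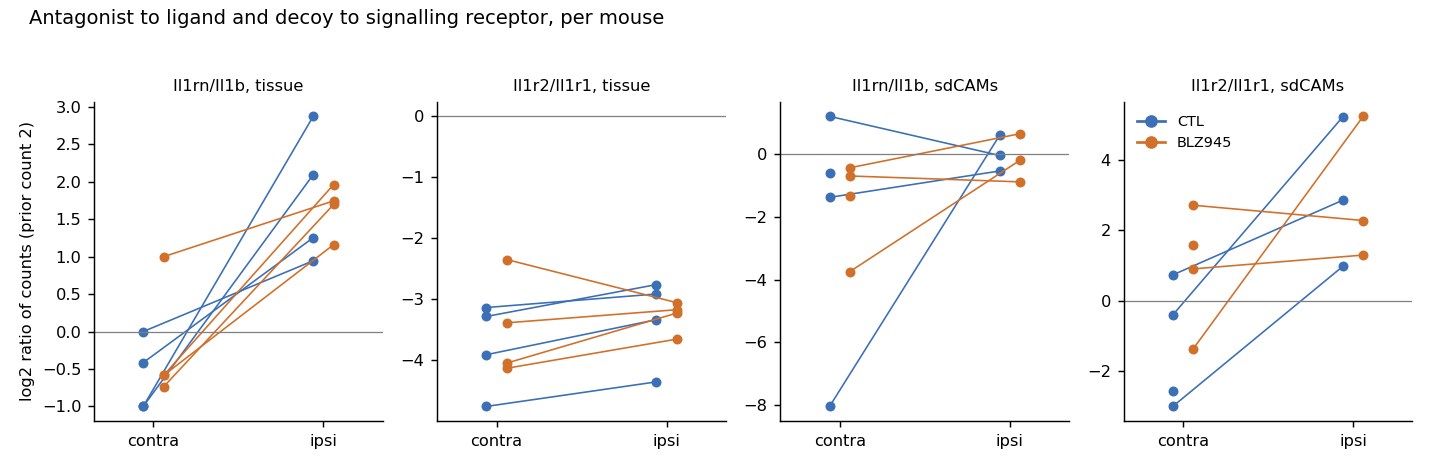
Log2 ratio of counts (2 added to each) of Il1rn to Il1b and of Il1r2 to Il1r1 in tissue and in sdCAMs, contralateral and ipsilateral. Each point is 1 library and lines join the hemispheres of 1 mouse, CTL in blue and BLZ945 in orange. The tissue ratio of Il1rn to Il1b was higher ipsilaterally in 8 of 8 mice (7 of 8 with 0.5 counts added), and the sdCAM ratio in 4 of 6.

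Few other genes of the pathway were called in sdCAMs, where 3.91% of all genes rose and 11.1% fell in the average, and the lists' counts are near those shares. Of 17 genes of IL-1 receptor signalling 1 rose, the kinase Irak4 (log2 fold change 1.08 ± 0.25, 16.4 to 36.7 CPM contralaterally and 31.6 to 75.1 CPM ipsilaterally). Of 22 tested inflammasome genes 1 rose, P2rx7, the ATP-gated channel upstream of NLRP3 (0.84 ± 0.22, 78.9 to 267 and 223 to 383 CPM). Of 20 interleukin-1 target genes 3 fell, the endothelial adhesion molecule Sele (0 to 14.5 CPM contralaterally and 0 to 0.751 CPM ipsilaterally, -4.89 ± 1.53), the prostaglandin synthase Ptges (-3.35 ± 0.87) and Lcn2 (-1.75 ± 0.47), and none rose. Of 9 tested other family members 1 fell, Il33 (-2.85 ± 0.72, adjusted p = 0.0148), from 23.8 to 418 CPM contralaterally to 2.19 to 63.7 CPM ipsilaterally, beside the falling endothelial, astrocyte and oligodendrocyte markers given above.

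The genes whose levels were most alike those of Il1b and Il1rn across libraries differed between tissue and sdCAMs. In the 16 tissue libraries Il1b was most like Ccl9 (Pearson r = 0.917), Myo1c (0.905) and Lrrc32 (0.902), and Il1rn most like Slc15a3 (0.973), Ifitm3 (0.973) and Mmp12 (0.968). In the 14 sdCAM libraries Il1b was most like AA467197 (0.949), Srgn (0.938) and Raet1a (0.925), and Il1rn most like the chemokine genes Ccl2 (0.963) and Ccl7 (0.946), followed by Tubb6 (0.909). These values were chosen as the highest of 14317 and 13828 genes on log2 CPM, libraries of one mouse are not independent, and in tissue they share the difference between hemispheres, so they describe likeness only.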

How the data were processed

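Tissue and sdCAM libraries were made with Nextera XT and sequenced as single reads by the authors. Per the labels' processing notes, bcl2fastq 2.20, STAR 2.7.11a, featureCounts 2.0.8 and DESeq2 1.46.0 were used, and the sources name both mm10 and GRCm39 without saying which the counts rest on. The authors deposited raw counts per gene, 1 column per library. Groups follow the labels. Here, counts were tested with edgeR 4.0.16 (R 4.3.3; TMM, quasi-likelihood test, 4 group means without a block), on genes whose counts summed over all libraries to 8 or more in tissue, 7 in sdCAMs and 15 in the joint fit of both. CPM uses TMM library sizes. The scripts were tested on simulated data. DESeq2 1.42.0, limma voom 3.58.1, other filters, scalings and thresholds, each mouse left out, and the mouse as a block were alternatives. Hemispheres of a mouse are pairs by design, and their deviations from the group means correlated with r from 0.230 to 0.630 in tissue (8 mice) and 0.0572 to 0.222 in sdCAMs (6 mice). No pair of libraries of a group agreed within sampling noise (lowest chi-square per degree of freedom 4.49). The members and lists were chosen with earlier results of these data known. The 10 members were named, with up to 3 called genes per list by size of change at a mean of at least 1 CPM (otherwise up to 2 by mean), and the 3 genes most like Il1b and Il1rn. Ly6g and the opposite-strand genes were added after their values were seen. Hbb-bs and Trac were not analysed here, and 1 gene of the microglia marker list is not reported here and was taken out of its sum.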

Additional observations from a re-analysis of the deposited data

Results flagged for a closer look

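A single sample stood far from the rest of its group of 4 to 10, by Dixon's test at the 95% level, in 5 of 66 groups of values checked, where chance alone gives about 1 in 20. In tissue of CTL mice, Casp1 was highest in the contralateral library of B1 (2.40 CPM) and lowest in the ipsilateral library of A4 (1.41 CPM), and Il1r1 was highest in the contralateral library of A3 (11.3 CPM), the mouse whose hemispheres are named the opposite way in the count columns. Among contralateral sdCAM libraries of CTL mice, Il1b was highest in B1 (382 CPM). The difference between the hemispheres in the tissue log2 ratio of Il1r2 to Il1r1 was lowest in C4 (-0.71), the one mouse in which that ratio was lower ipsilaterally.

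The stroke response differed between sdCAMs and tissue by the test of the difference itself for Il1b (-3.97 on the log2 scale, sdCAMs minus tissue), Il1rn (-5.24), Il1r1 (-3.34) and Il1rap (-1.21). The left-out ipsilateral sdCAM library of A3 held Il1rap at 111 CPM, which is 6 counts of 54055.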

How the results depend on the processing

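With the hemispheres of A3 as the count columns name them, the members called in tissue were 0 in CTL mice, 0 in BLZ945 mice and 0 in the average, and 2 for the difference of the stroke response between sdCAMs and tissue. In tissue of BLZ945 mice the count was 4 with DESeq2 and 4 with the mouse as a replicate block. In sdCAMs of CTL mice it was 2 with DESeq2, 1 with DESeq2's size factors, 1 without the filter and 1 with filterByExpr, and in BLZ945 mice 1 with DESeq2. The share of all genes called also moved with the setting, as given above for DESeq2 in sdCAMs and for the block in tissue. A change in these counts is thus no result about the members alone. The sdCAM average called 1 with a log2 threshold of 1 and 1 with all 16 libraries. The difference between sdCAMs and tissue called 1 with limma voom and 7 without the contralateral libraries of C3 and C4, a setting chosen after seeing the data, as were the block and the A3 naming in that joint fit. Leaving out 1 mouse at a time gave 0 to 1 calls in tissue of CTL mice, 1 to 2 in BLZ945 mice and 4 to 5 in the average, 0 to 1 in sdCAMs of CTL mice and 1 to 2 in the sdCAM average, and 2 to 4 for the difference between sdCAMs and tissue. The tissue log2 ratio of Il1rn to Il1a and Il1b differed by 3.17 with 0.5 counts added. The block changed no call other than those given beside the results.

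Signs turned only for members without a call. In sdCAMs, Il18 in the average was -0.065 with DESeq2, -0.065 with its size factors, -0.22 with all 16 libraries, -0.093 without the contralateral libraries of C3 and C4, and -0.13 to 0.13 with 1 mouse left out. In CTL mice it was -0.011 with the block, -0.13 with all 16 libraries and -0.17 to 0.36 with 1 mouse left out, and in BLZ945 mice 0.082 with the block and -0.26 to 0.087. Casp4 was -0.017 with all 16 libraries, -0.018 without the contralateral libraries of C3 and C4 and -0.031 to 0.35 with 1 mouse left out in the average, -0.047 to 0.59 in CTL mice, and -0.11, -0.27 and -0.29 to 0.40 in BLZ945 mice. In sdCAMs of BLZ945 mice, Il1rn was 0.73 with the block, Il1a -0.075 without the contralateral libraries of C3 and C4 and -0.032 to 0.96 with 1 mouse left out, and Nlrp3 -0.46 and -0.058 to 0.74. Casp1 was -0.017 in tissue of CTL mice with the A3 columns' naming, and its difference between sdCAMs and tissue -0.059 without the contralateral libraries of C3 and C4 and -0.10 to 0.34 with 1 mouse left out. The causes were not tested. In tissue, Il1a, Il1b, Il1rn, Il1r2 and Casp4 rested on few contralateral counts, which limits the precision of their fold changes.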

Other observations

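In the contralateral sdCAM library of A4, where Il1rn had no count, Il1b had 44.4 CPM and Il1a 53.5 CPM, and Ccl2, the gene most like Il1rn across sdCAM libraries, had 11.3 CPM, the lowest of the 8 contralateral libraries. Within ipsilateral sdCAMs, Il1r1 ran from 0.487 CPM in C3 to 18.7 CPM in D1. Casp1, by contrast, ran from 85.6 to 113 CPM over the same 6 libraries.

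In tissue, Cdh5 and Pecam1, junction proteins of endothelial cells, rose in the ipsilateral hemisphere beside Il1r1 (log2 fold changes 0.76 ± 0.13 and 0.66 ± 0.12, edgeR). The astrocyte filament gene Gfap also rose (1.71 ± 0.19), while the microglia genes P2ry12 (-0.70 ± 0.11) and Siglech (-0.66 ± 0.12) fell. Other markers of these cells went the other way by median, without a call. Contralateral and ipsilateral medians were 40.9 and 32.8 CPM for endothelial Slco1a4, 190 and 158 for astrocyte Gja1, and 26.4 and 32.2 for microglial Olfml3. Summed microglia markers overlapped, at 316 to 926 CPM contralaterally and 304 to 858 CPM ipsilaterally. In sdCAMs the border macrophage genes Cd163 (1.16 ± 0.35) and Lyve1 (1.12 ± 0.29) and the microglia gene Olfml3 (0.67 ± 0.20) rose ipsilaterally, while the hemoglobin gene Hba-a1 fell (-3.02 ± 0.68).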
